A study of Mus musculus with 12 samples.

Results

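The genes described here mark immune cells or encode cytokines, chemokines, their receptors and antigen-presenting molecules. They were picked from the gene symbols of a 768-probe NanoString nCounter panel. The rule took symbols that begin with Cd and a digit (leaving out Cd36, a fatty acid transporter), Ccl, Ccr, Cxc, Il and a digit, Ifn, Irf, H2-, Tnf, Gzm, Klr, Ms4a, Tlr, Fcer or Fcgr, and the symbols Ptprc, Tigit, Cpa3, Tpsab1 and Kit. It found 73 of the 768 genes, and Kit had no probe. The rule used symbols alone, but it was set with earlier results of these data known. The rule also took H2-Ke6 and Il4i1, whose names match although the first encodes a steroid dehydrogenase and the second an amino acid oxidase.

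The hearts were those of mouse embryos at stage E17.5, bred from Slc25a1 heterozygotes. Slc25a1 encodes the mitochondrial citrate carrier. The 12 hearts comprised 4 wild-type (WT), 4 heterozygous knockout (HET) and 4 homozygous knockout (KO) hearts, and the series asks how the carrier affects the metabolism of the developing heart. The labels name no Cre driver or tissue restriction, and the sources used here give no strain, sex, litter or structure of the allele. Each value was deposited as a ratio to Tbp, a general transcription factor gene, in the same heart. Whole probe counts were recovered from the ratios. Total counts were 1285512 to 1565516 per heart, Tbp counts 276 to 433, and the immune genes together took 0.670% to 1.02% of the total. Slc25a1 followed the labels, with a mean ratio to Tbp (± SD, n = 4 per genotype) of 0.613 ± 0.00721 in WT, 0.345 ± 0.0404 in HET and 0.0985 ± 0.0182 in KO hearts. Of the marker lists for other cells of the heart, 2 of 9 cardiomyocyte genes, 2 of 6 endothelial genes, 0 of 5 erythroid genes and 7 of 7 stromal genes had probes, so the panel checks the tissue label only in part.

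The fetal heart holds macrophages that settle from the yolk sac and the fetal liver, a small number of mast cells, and few lymphocytes, since most T and B cells of the mouse mature around and after birth. Macrophages clear debris and help shape coronary vessels and valves. Classical MHC class I molecules such as H2-D1 and H2-K1 are made by nearly all nucleated cells and present peptides from inside the cell to CD8 T cells, while MHC class II molecules such as H2-Aa and H2-Eb1 are made mainly by dendritic cells, B cells and some macrophages. Class I promoters of the mouse carry an NF-kappaB element beside an interferon-stimulated element, to which IRF proteins bind. In a whole heart the RNA of a rare cell type is diluted by that of cardiomyocytes, endothelium and stroma, and fewer cells of a type cannot be told apart from less RNA per cell.

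The promoter sequences of 3 class I genes are shown because H2-D1 gave the clearest genotype contrast among the immune genes and H2-K1, its close relative, did not share it. The windows are the 250 bases before the transcript start from RefSeq on GRCm38.p6, 5′ to 3′ on the gene's strand. Of the 73 genes, 55 had such a window. Capitals mark matches on either strand to the kB letters GGGATTCCC and to the IRF letters TTTCACTT. H2-D1 lies at chr17:35262844-35263093 on the plus strand, H2-K1 at chr17:34000334-34000583 on the minus strand (1 of its 2 starts) and H2-Q10 at chr17:35469839-35470088 on the plus strand.

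H2-D1: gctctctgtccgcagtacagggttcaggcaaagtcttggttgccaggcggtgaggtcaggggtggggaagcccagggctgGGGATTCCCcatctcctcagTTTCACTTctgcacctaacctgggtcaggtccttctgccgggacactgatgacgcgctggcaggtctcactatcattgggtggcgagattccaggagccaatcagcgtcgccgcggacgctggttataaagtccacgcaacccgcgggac

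H2-K1: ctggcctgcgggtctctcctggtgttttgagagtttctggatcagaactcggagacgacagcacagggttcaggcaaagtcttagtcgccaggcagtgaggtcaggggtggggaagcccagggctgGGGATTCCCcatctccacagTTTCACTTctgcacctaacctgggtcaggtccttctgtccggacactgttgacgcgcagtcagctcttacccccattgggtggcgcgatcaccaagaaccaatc

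H2-Q10: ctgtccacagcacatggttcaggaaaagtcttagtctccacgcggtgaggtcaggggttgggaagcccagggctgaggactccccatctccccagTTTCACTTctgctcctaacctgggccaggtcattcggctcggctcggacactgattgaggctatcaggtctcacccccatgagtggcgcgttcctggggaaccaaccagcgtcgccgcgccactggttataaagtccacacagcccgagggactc

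The kB and IRF letters stood 11 bases apart in both H2-D1 and H2-K1. The 2 windows shared 172 of 192 aligned bases, which is 89.6%. The H2-Q10 window held the IRF letters and no match to the kB letters. Among all 32851 promoter windows of the RefSeq table, 0.301% held the kB letters, 1.36% the IRF letters and 0.0152% both. Of the 55 immune genes with a window, 5 held the kB letters (H2-D1, H2-K1, Il2ra, Irf1 and Cd209e) and 5 the IRF letters (Ccl19, H2-D1, H2-K1, H2-M3 and H2-Q10). A match describes the letters of a window and is not a measured binding site.

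Windows of the mast cell genes Cpa3 and Ms4a2 are shown because Cpa3 varied widely between hearts of a genotype and Ms4a2 belongs to the same lineage. Capitals mark the letters AGATAA, a form of the GATA element, or their reverse complement TTATCT. The Cpa3 window is chr3:20242182-20242431 and the Ms4a2 window chr19:11623720-11623969, both on the minus strand.

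Cpa3: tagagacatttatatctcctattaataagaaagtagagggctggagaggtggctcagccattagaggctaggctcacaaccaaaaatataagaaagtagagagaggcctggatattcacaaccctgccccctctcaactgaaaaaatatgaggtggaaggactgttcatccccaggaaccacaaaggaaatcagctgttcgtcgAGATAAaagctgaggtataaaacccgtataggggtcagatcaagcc

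Ms4a2: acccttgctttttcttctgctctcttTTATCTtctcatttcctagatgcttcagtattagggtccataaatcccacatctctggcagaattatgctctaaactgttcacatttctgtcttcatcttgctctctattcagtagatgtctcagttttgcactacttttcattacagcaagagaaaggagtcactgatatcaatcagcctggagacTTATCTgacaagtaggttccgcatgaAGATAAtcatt

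The Cpa3 window held 1 match and the Ms4a2 window 3. These letters were common, in 9.99% of all windows and in 10 of the 55 immune gene windows.

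Of the 73 immune genes, 48 had a mean count under 50. Of all 73, 17 had a mean count under 20 over the 12 hearts and are called near the lowest values, 31 had a mean from 20 to under 50 and are called low, and 25 had a mean of 50 or more and are called expressed. The lowest count of any probe in a heart was 5 to 9. A mean under 20 was found for 23.3% of the immune genes and for 7.93% of the 694 other genes apart from Tbp. The values just inside the line at 20 were 20.8 for Tlr1 and Il6, and the value just outside was 19.8 for Cd209e. A count also depends on how well a probe binds, so counts of different genes are set only against these thresholds.

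Near the lowest values, hearts of a genotype differed by little more than counting. A chi-square per degree of freedom within genotypes, which is 1 for counting error alone, had a median of 1.22 over the 17 genes near the lowest values, 1.64 over the 31 low genes and 4.85 over the 25 expressed genes. It passed 2 in 3, 12 and 21 genes of these classes. The highest value was 121 for Cpa3, a mast cell protease.

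**Figure D1:**
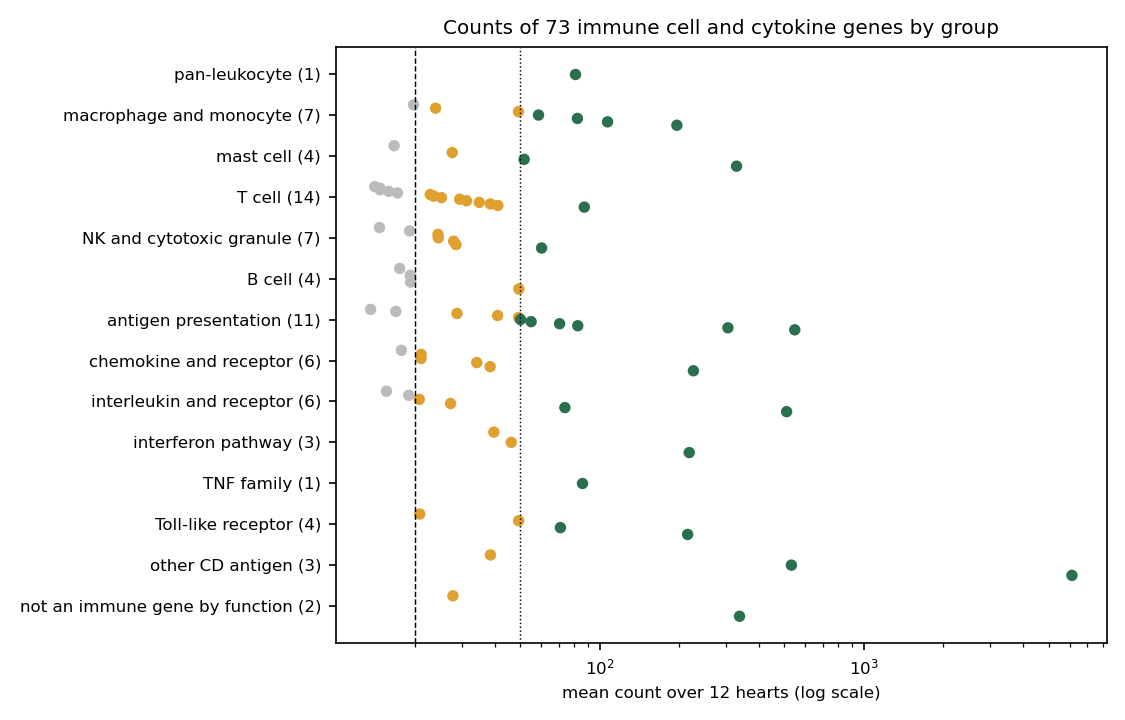
Mean probe count over 12 hearts (log scale) for 73 genes, each a point, in rows by lineage or family with the number of genes in brackets. The dashed line is a mean count of 20 and the dotted line 50, and the 17 grey points fall under 20, the 31 amber points between the lines and the 25 green points at 50 or more.

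Lineages differed in how many of their genes rose above the lowest values. All of the 3 interferon pathway genes, 4 Toll-like receptors, 1 TNF family gene, 3 other CD antigens and Ptprc had a mean of at least 20. For macrophages and monocytes this held for 6 of 7 genes (Cd68, Ms4a4a, Cd84, Cd14, Fcgr4 and Cd163, with Cd209e below), for mast cells for 3 of 4, for antigen presentation for 9 of 11 and for chemokines and their receptors for 5 of 6. Interleukins and their receptors had 4 of 6, with Il4 and Il21r below.

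Among lymphocyte genes, 9 of 14 T cell genes, 5 of 7 natural killer and granule genes and 1 of 4 B cell genes had a mean of at least 20. The CD3 subunits Cd3d, Cd3g and Cd3e, which assemble with the T cell receptor, had mean counts of 38.6, 35.0 and 29.5, and Cd247, the zeta chain that natural killer cells use too, 87.4. The co-receptors Cd4 and Cd8a, which mark the main classes of T cells, stayed near the lowest values at 15.9 and 14.8, while Cd8b1, the partner chain of Cd8a, had 41.2. Ms4a1, which encodes CD20 of B cells, was near the lowest values, and so was the B cell receptor Tnfrsf17. The 1 B cell list gene above the line was Cd180, at 49.4, a Toll-like receptor relative that macrophages make as well. Also near the lowest values were Cd6, Il2ra and Tigit of the T cell list, Gzmb and Klrk1 of the killer cell list, the tryptase Tpsab1, Cxcl9, H2-Q1 and H2-Ob.

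Expression was then compared between genotypes for the 56 immune genes whose mean count reached 20. The fit was limma on log2((count + 1) / Tbp count) over all 695 genes with such a mean, with Benjamini-Hochberg adjustment over all of them. The added count of 1 shrinks the log2 differences of low genes. No immune gene had an adjusted p under 0.05 in limma in any of the 3 comparisons. In the panel as a whole 1 of 695 genes (0.144%) had such a p between KO and WT, 1 (0.144%) between HET and WT, and 3 (0.432%) between KO and HET. Slc25a1 was among them each time. Standard errors of single immune genes ran from 0.0989 to 0.404 on the log2 scale with a median of 0.198, so the precision differed by gene. At an unadjusted limma p under 0.05 there were 5 immune genes for KO against WT (8.93%, with 11.1% of all genes tested), 7 for HET against WT (12.5%, with 3.17% of all) and 10 for KO against HET (17.9%, with 3.88% of all). All of the 7 were higher in HET hearts, with 2.45% of all genes higher at that p, and all of the 10 were lower in KO than in HET hearts, with 3.31% of all genes lower. These 2 comparisons share the HET hearts, and the comparisons with WT share the WT hearts. The shares depended on the scaling. With each heart centred on its own median, 3 immune genes had such a p for KO against HET (5.36%, with 8.35% of all genes). It was 6 for HET against WT (10.7%, with 7.19% of all) and 7 for KO against WT (12.5%, with 18.6% of all).

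The 4 KO hearts lay wholly below the 4 HET hearts for 6 immune genes, H2-D1, Cd84, Cd68, Fcgr4, Gzma and Klrb1a. That is 10.7% of those tested, with 2.16% of all 695 genes. Against WT, the KO hearts lay wholly below for 3 (H2-D1, Cd68 and Cd274, 5.36% with 2.59% of all) and wholly above for Ccl19 alone (1.79% with 0.719% of all). For HET against WT no immune gene separated all hearts, with 0.288% of all genes wholly higher and 0.719% wholly lower. When each heart was centred on its own median in place of Tbp, H2-D1, Cd84, Fcgr4 and Gzma still lay wholly below HET in KO (7.14%, with 2.3% of all genes), while Cd68 and Klrb1a overlapped. Against WT, centring left H2-D1 wholly below in KO (1.79%, with 3.74% of all genes) and put Ccl19, Irf4, Ms4a2 and Cd244a wholly above (7.14%, with 5.18% of all), and in HET hearts it put Ccl19, Fcer1a and Tlr1 wholly above (5.36%, with 3.17% of all). Centring moved the median log2 difference of all tested genes from -0.13 to 0.00 between KO and WT, from -0.07 to 0.01 between HET and WT and from -0.08 to -0.03 between KO and HET.

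H2-D1, a classical class I heavy chain, was lower in every KO heart than in any other heart. Its ratio to Tbp was 1.66, 1.98, 1.74 and 1.82 in WT hearts 1 to 4, 1.60, 2.08, 2.00 and 1.67 in HET hearts 1 to 4, and 1.25, 1.32, 1.15 and 1.34 in KO hearts 1 to 4. WT and HET hearts covered much the same range, and a clear gap separated both from KO. The log2 difference in the limma fit was -0.50 (SE 0.117, adjusted p = 0.239) for KO against WT, -0.53 (SE 0.117, adjusted p = 0.0798) for KO against HET and 0.02 (SE 0.117, adjusted p = 0.954) for HET against WT. None passed the threshold. Both differences of KO passed it with a variance that follows the mean and robust settings, with limma adjusted p of 0.0321 against WT and 0.00836 against HET.

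H2-K1, the other classical class I gene on the panel, showed no such gap. Its ratio to Tbp was 0.757, 1.01, 0.823 and 0.901 in WT, 0.865, 1.02, 1.06 and 0.885 in HET and 0.874, 0.938, 0.828 and 0.939 in KO hearts 1 to 4. The genotypes overlapped in part, with HET hearts 2 and 3 above every WT and KO heart. Its log2 difference was 0.04 (SE 0.119, limma adjusted p = 0.841) for KO against WT and -0.09 (SE 0.119, limma adjusted p = 0.937) for KO against HET.

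The H2-D1 count divided by the H2-K1 count of the same heart needs neither Tbp nor the total. This quotient was formed after the values had been seen and is given as a description with no test. It was 2.19, 1.96, 2.12 and 2.02 in WT, 1.85, 2.04, 1.89 and 1.89 in HET and 1.43, 1.41, 1.39 and 1.43 in KO hearts 1 to 4. The KO hearts were nearly alike and far below the others, while WT and HET hearts overlapped. The means (± SD, n = 4 per genotype) were 2.07 ± 0.103 in WT, 1.92 ± 0.0854 in HET and 1.42 ± 0.0188 in KO hearts, so that KO stood at 68.3% and HET at 92.6% of WT. Counting alone would give a coefficient of variation of 7.14%. The size of the quotient reflects both probes, and only its change between hearts can be read. Mouse class I genes are near-identical over long stretches and differ between strains, the probe sequences were not used here, and which class I transcripts each probe captures is therefore uncertain.

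**Figure D2:**
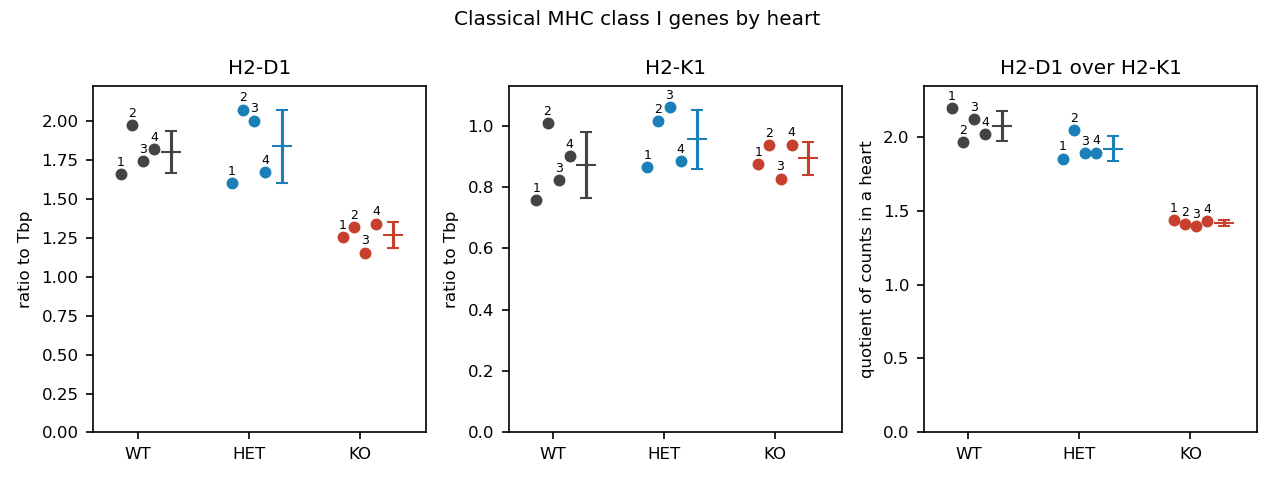
Ratio to Tbp of H2-D1 and H2-K1 and the quotient of their counts in each heart, by genotype. Points are hearts with their replicate numbers, and bars are the mean ± SD of 4 hearts. The KO hearts lie below all others for H2-D1 (1.15 to 1.34) and for the quotient (1.39 to 1.43), and overlap the others for H2-K1.

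H2-D1 and H2-K1 were correlated across hearts once genotype was set aside. With each heart centred on its median and each gene on its genotype mean, Pearson's r over 12 hearts was 0.95 and Spearman's rho 0.84, with permutation p adjusted over 22 gene pairs of 0.0257 and 0.0686, hearts being permuted within genotypes. Without the 2 hearts farthest from the median of H2-D1, r was 0.91. With genotype means kept, r was 0.41 (adjusted permutation p of 0.277), and without WT heart 2, HET heart 4 and KO heart 1 it was 0.94 (0.262). Leaving out hearts also leaves fewer arrangements to permute, which raises the smallest p that can be reached.

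The 7 other antigen presentation genes tested were split for KO against WT, with 4 above 0 and 3 below and a median log2 difference of 0.16, where 25.2% of all 695 genes were above 0. For HET against WT 5 of the 7 were above 0 (median 0.16). For KO against HET 6 of the 7 were above 0 (median 0.03), as were 28.6% of all genes, and H2-T23 was the 1 below. H2-Q10, a class Ib gene whose secreted product comes mainly from liver in adult mice, had ratios of 0.0580, 0.0535, 0.0535 and 0.0884 in WT, 0.118, 0.0751, 0.128 and 0.0624 in HET and 0.126, 0.0706, 0.106 and 0.0968 in KO hearts 1 to 4. WT heart 4 stood apart from the other WT hearts, within the range of HET and KO. The log2 difference was 0.63 (SE 0.239, limma adjusted p = 0.371) for KO against WT and 0.54 (SE 0.239, limma adjusted p = 0.871) for HET against WT. H2-T23, which presents signal peptides to natural killer receptors, had a log2 difference of -0.39 for KO against HET (SE 0.161, limma adjusted p = 0.937), with overlapping hearts.

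The class II chain H2-Aa had ratios of 0.261, 0.296, 0.166 and 0.153 in WT, 0.191, 0.231, 0.162 and 0.427 in HET and 0.324, 0.226, 0.218 and 0.194 in KO hearts 1 to 4. It was highest in HET heart 4 and differed more within genotypes than between them (KO against WT 0.16, SE 0.280, limma adjusted p = 0.747). H2-Eb1, another class II chain, ranged from 0.147 to 0.271 with no separation of genotypes. H2-Q2 and H2-M3 of class Ib and H2-DMa, which loads peptides onto class II, also overlapped between genotypes.

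Most macrophage genes had their highest mean in HET hearts and were lower in KO than in HET hearts, with no single gene called. All 6 tested were above 0 for HET against WT (median log2 0.18, with 0.11 over the 56 immune genes and -0.07 over all 695), and 5 of 6 were below 0 for KO against HET (median -0.38, with -0.11 and -0.08, and 71.4% of all genes below 0). For KO against WT, 4 of 6 were below 0, with a median of -0.09 where the median of all genes was -0.13. The 2 comparisons with HET use the same HET hearts, so their opposite directions are not separate findings.

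Cd68, a lysosomal glycoprotein of macrophages, had ratios to Tbp of 0.471, 0.946, 0.614 and 0.520 in WT, 0.528, 0.832, 0.608 and 0.654 in HET and 0.405, 0.449, 0.450 and 0.468 in KO hearts 1 to 4. The KO hearts were tightly grouped just under the lowest WT heart, and WT heart 2 and HET heart 2 were far above the rest. The log2 difference was -0.47 (SE 0.192, limma adjusted p = 0.371) for KO against WT and -0.55 (SE 0.192, limma adjusted p = 0.691) for KO against HET. The difference from WT was -0.22 when WT heart 2, HET heart 4 and KO heart 1, the highest of each genotype in stromal genes, were left out.

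Cd84, a SLAM family receptor of macrophages, mast cells and platelets, had ratios of 0.181, 0.344, 0.273 and 0.160 in WT, 0.267, 0.369, 0.280 and 0.321 in HET and 0.198, 0.195, 0.149 and 0.161 in KO hearts 1 to 4. All KO hearts were below all HET hearts, and the WT hearts spanned both. The log2 difference for KO against HET was -0.81 (SE 0.208, limma adjusted p = 0.222), the largest among the 56 genes in that comparison, and -0.38 (SE 0.208, limma adjusted p = 0.375) for KO against WT.

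Ms4a4a, a membrane protein of macrophages, had ratios of 0.181, 0.468, 0.273 and 0.187 in WT, 0.337, 0.508, 0.311 and 0.381 in HET and 0.334, 0.282, 0.252 and 0.235 in KO hearts 1 to 4. WT heart 2 overlapped the HET hearts and the other WT hearts were lower. The log2 difference for HET against WT was 0.55 (SE 0.253, limma adjusted p = 0.871). Fcgr4, an activating Fc receptor, had a ratio of 0.144 ± 0.0121 in WT, 0.163 ± 0.00808 in HET and 0.132 ± 0.0148 in KO hearts (SD, n = 4 each), with every KO heart below every HET heart and a log2 difference of -0.31 (SE 0.111, limma adjusted p = 0.711). Cd14, the lipopolysaccharide co-receptor, and Cd163, the haemoglobin scavenger receptor, overlapped between all genotypes.

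Cd68 and Ms4a4a were correlated within genotypes, with r = 0.91 and rho = 0.84 over 12 hearts (adjusted permutation p of 0.0406 and 0.0686), and r = 0.80 without the 2 hearts farthest from the median of Cd68. The adjusted permutation p was 0.0888 on the ratio to Tbp (r = 0.86) and 0.262 without WT heart 2, HET heart 4 and KO heart 1 (r = 0.91). Ptprc encodes CD45, carried by all leukocytes. Its ratios were 0.207, 0.293, 0.242 and 0.167 in WT, 0.250, 0.246, 0.318 and 0.293 in HET and 0.249, 0.161, 0.195 and 0.235 in KO hearts 1 to 4. The genotypes overlapped, with log2 differences of 0.30 for HET against WT (SE 0.177, limma adjusted p = 0.871) and -0.41 for KO against HET (SE 0.177, limma adjusted p = 0.937).

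Mast cell genes varied widely between hearts of the same genotype. Cpa3, the carboxypeptidase stored in mast cell granules, had ratios of 0.638, 1.66, 0.735 and 0.483 in WT, 0.854, 1.24, 0.625 and 1.52 in HET and 1.64, 0.528, 0.542 and 0.813 in KO hearts 1 to 4. WT heart 2, HET hearts 2 and 4 and KO heart 1 were high and the other 8 hearts lower. The highest heart was 3.45-fold above the lowest, the widest range among the 56 genes, whose median range was 2.22-fold. The log2 difference for KO against WT was 0.00 (SE 0.404, limma adjusted p = 0.995). The same 4 hearts had the highest summed ratio of 7 stromal genes (Thbs2, Pdgfrb, Itga11, Cyp1b1 and 3 collagen VI chains), at 33.0, 29.3, 33.2 and 27.9, with 19.5 to 23.7 in the other 8. By genotype that sum was 19.5 to 33.0 in WT, 21.5 to 33.2 in HET and 22.4 to 27.9 in KO hearts, and its part in the Cpa3 values was not tested. The stromal list was chosen in earlier work on these hearts after its values had been seen.

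Ms4a2, the beta chain of the high-affinity IgE receptor, had ratios of 0.159, 0.118, 0.104 and 0.143 in WT, 0.170, 0.153, 0.247 and 0.118 in HET and 0.148, 0.189, 0.163 and 0.158 in KO hearts 1 to 4. It was lowest or near lowest in WT heart 2 and HET heart 4, where Cpa3 was high. Its log2 difference was 0.33 (SE 0.195, limma adjusted p = 0.397) for KO against WT and 0.35 (SE 0.195, limma adjusted p = 0.871) for HET against WT. Within genotypes, Cpa3 and Ms4a2 had r = -0.53 and rho = -0.65 (adjusted permutation p of 0.156 and 0.105), and r = -0.73 without the 2 hearts farthest from the median of Cpa3.

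Fcer1a, the IgE-binding chain of the same receptor, had ratios of 0.0870, 0.0479, 0.0451 and 0.0884 in WT, 0.104, 0.120, 0.111 and 0.0855 in HET and 0.0930, 0.0424, 0.0888 and 0.0839 in KO hearts 1 to 4. HET hearts were high, apart from HET heart 4, which fell within the WT range. The log2 difference of 0.68 for HET against WT (SE 0.260, limma adjusted p = 0.871) was the largest among the 56 genes in that comparison. Of the 4 mast cell markers, the tryptase Tpsab1 stayed near the lowest values in all groups, at 0.0509 ± 0.0181 in WT, 0.0521 ± 0.0199 in HET and 0.0475 ± 0.00735 in KO hearts (SD, n = 4 each).

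**Figure D3:**
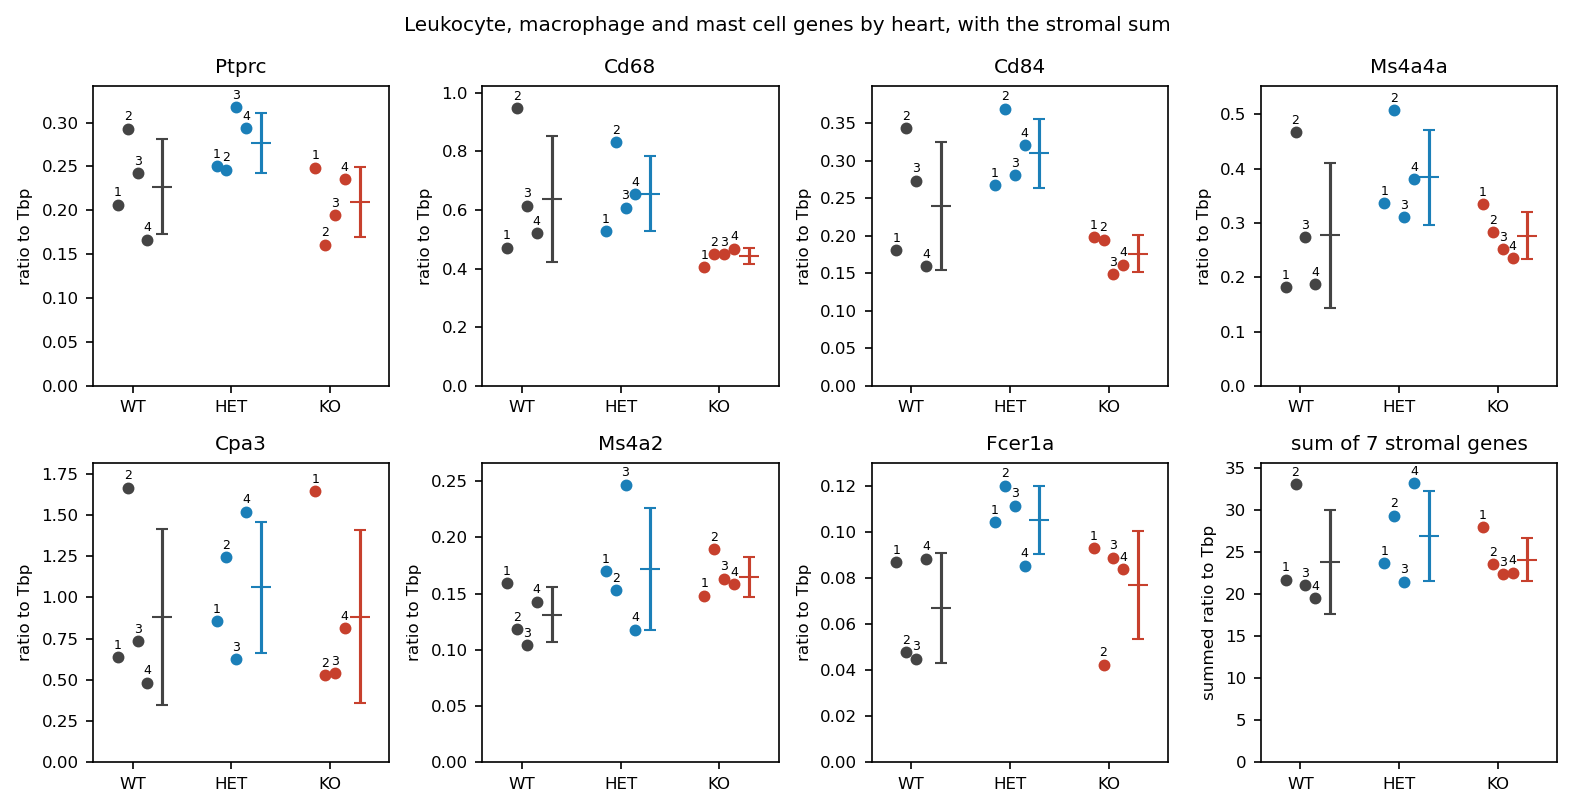
Ratio to Tbp of Ptprc, of 3 macrophage genes (Cd68, Cd84 and Ms4a4a) and of 3 mast cell genes (Cpa3, Ms4a2 and Fcer1a) in each heart, and the summed ratio of 7 stromal genes. Points are hearts with their replicate numbers, and bars are the mean ± SD of 4 hearts. WT heart 2, HET hearts 2 and 4 and KO heart 1 are the 4 highest both for Cpa3 and for the stromal sum, and all KO hearts lie below all HET hearts for Cd68 and Cd84.

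T cell genes lay on both sides of 0, and none was called in limma. For KO against WT, 5 of 9 were above 0 and 4 below, with a median log2 difference of 0.01, where 25.2% of all genes were above 0. For HET against WT, 6 of 9 were above 0 (median 0.11), as were 32.7% of all genes. After median centring it was 8 of 9 (median 0.19) and 52.7% of all genes. For KO against HET 4 of 9 were above 0 (median -0.15), as were 28.6% of all genes. By count, 8 of the 9 were low. Among 100 low genes outside the immune list, 60.0% were above 0 for KO against WT on the ratio to Tbp. The share was 68.0% for HET against WT and 46.0% for KO against HET. Cd247 had ratios of 0.290, 0.234, 0.248 and 0.265 in WT, 0.278, 0.165, 0.389 and 0.233 in HET and 0.229, 0.266, 0.301 and 0.255 in KO hearts 1 to 4. HET hearts held both the lowest and the highest value, with WT and KO between them.

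Single HET hearts were high for several T cell genes. Cd3g had ratios of 0.127, 0.0817, 0.0732 and 0.0918 in WT, 0.122, 0.0811, 0.0946 and 0.162 in HET and 0.106, 0.121, 0.0917 and 0.0839 in KO hearts 1 to 4, with HET heart 4 highest. Cd3d was highest in HET heart 3 at 0.176 and next in HET heart 4 at 0.155, and ran from 0.0601 to 0.130 in the other 10. Il2ra, the alpha chain of the interleukin-2 receptor, was near the lowest values with 7 to 19 counts in 11 hearts and 42 in HET heart 4. HET heart 4 was thus the highest heart for Cd3g, Il2ra and the class II gene H2-Aa. Over the 56 genes tested it was highest for 4 and lowest for 3, and for 10 and 1 after median centring. The median log2 difference of the 9 T cell genes from the WT mean in that heart was -0.02, and 0.28 after median centring.

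Cd8b1 had ratios of 0.123, 0.0845, 0.115 and 0.0986 in WT, 0.101, 0.105, 0.193 and 0.104 in HET and 0.133, 0.119, 0.143 and 0.158 in KO hearts 1 to 4. HET heart 3 stood alone above all others. The log2 difference was 0.38 (SE 0.194, limma adjusted p = 0.371) for KO against WT. The co-stimulatory receptors Cd28, Cd27 and Tnfrsf4 and the ligand Cd40lg overlapped between genotypes in all comparisons.

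Among killer cell genes, Gzma and Klrb1a had every KO heart below every HET heart. Gzma, a granule protease, had ratios of 0.0471, 0.0761, 0.0958 and 0.0986 in WT, 0.111, 0.0991, 0.118 and 0.0924 in HET and 0.0553, 0.0847, 0.0602 and 0.0645 in KO hearts 1 to 4. WT hearts covered the range of KO and the lower part of HET. The log2 difference was -0.66 (SE 0.200, limma adjusted p = 0.400) for KO against HET and 0.44 (SE 0.200, limma adjusted p = 0.871) for HET against WT, at a mean count of 28.0. Klrb1a, an NKR-P1 receptor, had a log2 difference of -0.52 (SE 0.218, limma adjusted p = 0.937) for KO against HET. Cd244a, a SLAM family receptor of natural killer cells, was highest in HET heart 3 at 0.304 and ran from 0.117 to 0.212 elsewhere. Klrd1, the CD94 chain, and the granzyme Gzmd overlapped throughout. The B cell list had Cd180 alone to test, with -0.51 for KO against HET (SE 0.218, limma adjusted p = 0.937) and overlapping hearts.

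Chemokines differed from gene to gene. Ccl19, which draws dendritic cells and T cells through Ccr7, had ratios of 0.0435, 0.0535, 0.0507 and 0.0476 in WT, 0.0660, 0.0931, 0.0811 and 0.0508 in HET and 0.0653, 0.0650, 0.0630 and 0.0742 in KO hearts 1 to 4. All KO hearts and 3 of 4 HET hearts were above every WT heart. The log2 difference was 0.42 (SE 0.158, limma adjusted p = 0.371) for KO against WT and 0.51 (SE 0.158, limma adjusted p = 0.871) for HET against WT. Its mean count was 21.1, close to the lowest values, where counting error is a large part of each ratio.

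Ccl2, which recruits monocytes, had ratios of 0.678, 1.01, 0.828 and 0.561 in WT, 0.635, 0.760, 0.574 and 0.605 in HET and 0.558, 0.664, 0.470 and 0.710 in KO hearts 1 to 4. WT heart 2 was highest and the groups overlapped (KO against WT -0.34, SE 0.180, limma adjusted p = 0.371). Cxcl9, an interferon-induced chemokine, had 52 counts in WT heart 2 and 11 to 19 in the other 11 hearts. Irf1, an interferon-induced transcription factor, was likewise highest in WT heart 2, at 0.893, with 0.513 to 0.733 in the rest. WT heart 2 was thus highest for Cd68, Ccl2, Cxcl9, Irf1 and Cpa3. Over the 56 genes tested it was highest for 7 and lowest for 4. Ccl4, Ccl5 and the receptor Cxcr6 overlapped between genotypes.

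Cytokine genes did not separate the genotypes. Il7, which stromal cells make for developing lymphocytes, had ratios of 1.92, 1.34, 1.57 and 1.83 in WT, 1.61, 1.47, 1.71 and 1.12 in HET and 1.34, 1.55, 1.43 and 1.59 in KO hearts 1 to 4. The groups overlapped, and Il7 was lowest in HET heart 4. Its log2 difference was -0.16 for KO against WT (SE 0.151, limma adjusted p = 0.557). Il2, the T cell growth factor, had log2 differences of -0.04 between KO and WT and -0.02 between HET and WT, both with an SE of 0.134. Tnf, at 0.255 ± 0.0352 in WT, 0.255 ± 0.102 in HET and 0.261 ± 0.0660 in KO hearts (SD, n = 4 each), had equal group levels but a wide spread, with 0.395 in HET heart 3 as its highest value. Ifng was 0.136 ± 0.0377 in WT, 0.141 ± 0.0524 in HET and 0.140 ± 0.00597 in KO hearts (SD, n = 4 each). Il10 and Il6, both low, and Irf4 overlapped too.

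Among Toll-like receptors, Tlr4, which senses lipopolysaccharide and is also made by cardiomyocytes, was 0.671 ± 0.0445 in WT, 0.643 ± 0.0706 in HET and 0.618 ± 0.0844 in KO hearts (SD, n = 4 each). Tlr7 and Tlr1 had log2 differences of 0.46 (SE 0.208) and 0.48 (SE 0.197) for HET against WT, with a limma adjusted p of 0.871 for both and overlapping hearts. Tlr2 overlapped in all comparisons.

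The other CD antigens are not markers of leukocytes alone. Cd63, a tetraspanin of late endosomes in most cells, had ratios of 19.3 ± 1.27 in WT, 18.1 ± 0.613 in HET and 17.4 ± 0.883 in KO hearts (SD, n = 4 each). It was the most even of the 56 genes across hearts, at 1.23-fold from lowest to highest, and its genotypes overlapped. Cd276 (B7-H3) differed by 0.10 for KO against WT (SE 0.115, limma adjusted p = 0.616). Cd274 (PD-L1), an inhibitory ligand for T cells, had ratios of 0.120, 0.158, 0.110 and 0.146 in WT, 0.0868, 0.111, 0.142 and 0.143 in HET and 0.0980, 0.0847, 0.0802 and 0.0935 in KO hearts 1 to 4. All KO hearts were below all WT hearts, HET hearts spanned both, and the separation from WT was lost after median centring. The log2 difference was -0.56 (SE 0.164, limma adjusted p = 0.371) for KO against WT. The steroid dehydrogenase H2-Ke6 differed by -0.08 (SE 0.177, limma adjusted p = 0.804) for KO against WT, and Il4i1 overlapped between genotypes.

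**Figure D4:**
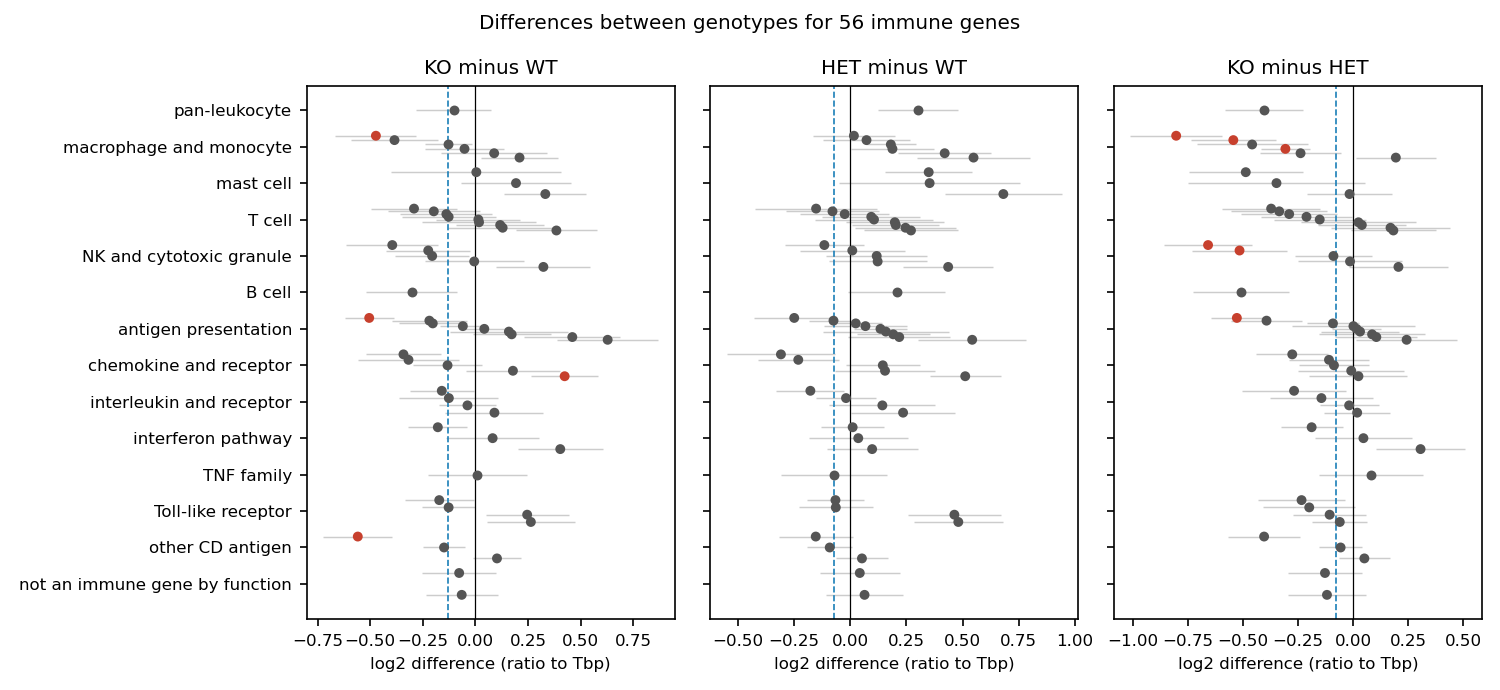
Log2 differences of the ratio to Tbp for 56 immune genes between KO and WT, HET and WT, and KO and HET, in rows by lineage or family. Points are genes, grey bars ± 1 SE, red points genes whose 4 hearts of one genotype lie wholly apart from the 4 of the other, and the blue dashed line is the median of all 695 genes (-0.13, -0.07 and -0.08 in that order). Red points number 4, 0 and 6.

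Over all 4 HET hearts, more immune genes lay above than below WT. For HET against WT, 41 of 56 were above 0 with a median log2 difference of 0.11, where 32.7% of all 695 genes were above 0 with a median of -0.07. After median centring 48 of 56 were above 0, as were 52.7% of all genes, with medians of 0.19 and 0.01. Without HET heart 3, a setting added after the values were seen, 28 of 56 immune genes were above 0 for HET against WT (median -0.01), as were 26.8% of all genes. With that heart left out and median centring, it was 37 of 56 (66.1%) and 49.9% of all genes. The share above 0 also differed by count level. Among genes near the lowest values, which were not tested, 9 of 17 immune genes (52.9%) and 26 of 55 other genes (47.3%) were above 0. Among low genes, 24 of 31 immune genes (77.4%) and 68 of 100 other genes (68.0%) were above 0. Among expressed genes it was 17 of 25 (68.0%) against 118 of 539 (21.9%).

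HET heart 3 was the highest of the 12 hearts for 23 of the 56 immune genes, 18 after median centring, and the lowest for none. It was highest for 30 of 100 other low genes and for 39 of 539 other expressed genes (7.24%). Among the 55 other genes near the lowest values its median ratio was 0.0642, with 0.0393 to 0.0544 in the other hearts. The part that such background counts had in the immune genes' values was not tested.

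**Figure D5:**
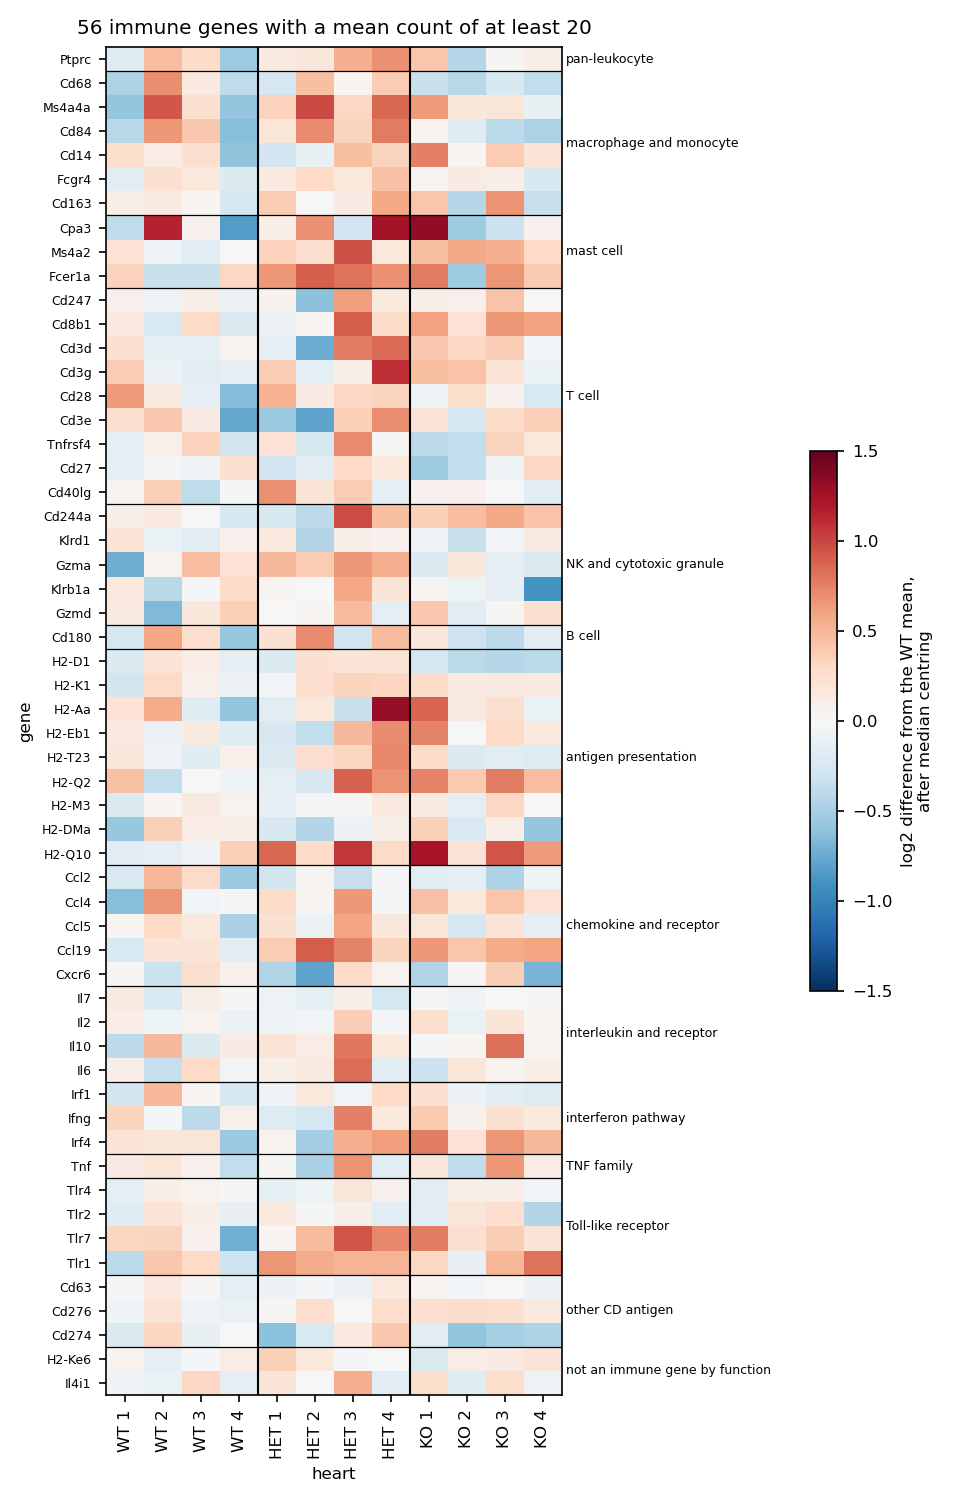
Log2 difference from the WT mean after median centring for 56 immune genes (rows, by lineage or family) in 12 hearts (columns), with red above and blue below the WT mean and lines between genotypes. HET heart 3 is the highest heart for 18 genes on this scale, Cpa3 is high in WT heart 2, HET heart 4 and KO heart 1, and H2-D1 is below the WT mean in all KO hearts.

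Few pairs of immune genes moved together within genotypes beyond what the permutations gave. Of 22 pairs computed, 3 had an adjusted permutation p under 0.05 for Pearson's r. These 3 were H2-D1 with H2-K1, Cd68 with Ms4a4a, and Cd63 with Cd276. The number was 2 on the ratio to Tbp (H2-D1 with H2-K1 and Cd63 with Cd276). With genotype means kept it was 2, Cd68 with Ms4a4a and Cpa3 with Ptprc (adjusted permutation p of 0.0454 for each). It was 0 without WT heart 2, HET heart 4 and KO heart 1. Fewer hearts per genotype leave fewer arrangements to permute, so the smallest p that can be reached is larger. In that setting r was 0.94 for H2-D1 with H2-K1 and 0.91 for Cd68 with Ms4a4a. The count of 0 therefore cannot show whether these 2 pairs rest on those hearts. Cd63 with Cd276 had r = 0.81 and rho = 0.86 (adjusted permutation p of 0.0257 and 0.0229). Without the 2 hearts farthest from the median of Cd63, r was 0.59. For that pair r was 0.54 with genotype means kept (adjusted permutation p of 0.179) and 0.52 without those 3 hearts (0.256). Ptprc had r = 0.77 with Cpa3 and r = 0.74 with Cd63 (-0.22 on the ratio to Tbp), each with an adjusted permutation p of 0.0667, and r = 0.69 with H2-D1 and r = 0.72 with Irf1, each with an adjusted permutation p of 0.0951. Its correlation with the T cell gene Cd247 was 0.28 and with the killer cell gene Cd244a 0.46, with adjusted permutation p of 0.462 and 0.156. Cd247 and Cd8b1 had r = 0.69 (adjusted permutation p of 0.156) and r = 0.46 without the 2 hearts farthest from the median of Cd247.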

How the data were processed

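Total RNA of 12 E17.5 hearts was measured with NanoString nCounter, per the labels. In that assay each transcript's probe carries a colour code and is counted. The deposited table holds a ratio for each of 768 probes, and Tbp is 1 in every heart, so the authors divided each value by Tbp. The sources used here give no background subtraction, control scaling, software or panel name. Counts were recovered per heart with the smallest multiplier that turned every ratio into a whole number (tolerance 0.01). A larger multiple would give whole numbers equally well, so counts and counting errors rest on this reading. Tbp counts carry a counting error of 4.81% to 6.02%, shared by all ratios of a heart. The number of hearts limits the precision further.

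The plan assumed counts, and the fit was run on the recovered ones as log2((count + 1) / Tbp count) with limma 3.58.1 in R 4.3.3. It used 1 mean per genotype over all 12 hearts, the 695 genes whose mean count reached 20 (among them 56 of the 73 immune genes) and a Benjamini-Hochberg adjusted p under 0.05. Each heart is taken as a separate embryo, and the labels name no litter. The limma p-values set each genotype difference against the spread between these hearts, and independence of the hearts could not be checked. Correlations were computed with Python 3.11.15 and scipy 1.17.1 with 100000 resamples within genotypes, and plots with matplotlib 3.10.9. Promoter windows came from RefSeq (GRCm38.p6), and all 73 symbols matched its gene table. The fit was run on simulated data with planted differences, drawn independently for each gene and heart. Shifts shared by many genes of a heart were left out, so the simulation does not give the power in these data. Genes of cell lineages were grouped by 7 marker lists and the rest by symbol. The lists for macrophages, mast cells, T cells, killer cells, B cells and antigen presentation had 7 of 27, 4 of 6, 14 of 23, 6 of 20, 4 of 14 and 10 of 18 listed genes on the panel. Gzmd, H2-Q10, H2-Ke6 and Il4i1 were assigned after the symbols were read. The members and lists were chosen with earlier results of these data known. The genes picked for values per heart were the 3 of a lineage with the highest mean count. The gene of each lineage with the smallest p in each comparison was added. For part of them only a mean, a range, a difference or the overlap is given. Other genes have values of single hearts where a heart stood out. Alternatives covered scaling, pseudocount, filter, variance model, heart weights, the replicate block and each heart left out.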

Additional observations from a re-analysis of the deposited data

Results flagged for a closer look

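A single heart stood apart from the other 3 of its genotype in 5 of 126 gene and genotype groups, by Dixon's test at its critical value. Chance gives about 1 in 20 such groups. H2-Q10 was 0.0884 in WT heart 4, with 0.0580 in the next WT heart. Irf1 was 0.893 in WT heart 2, with 0.619 in the next. Ifng was 0.220 in HET heart 3, with 0.120 in the next, and Cd8b1 was 0.193 in the same heart, with 0.105 in the next. Tlr7 was 0.171 in KO heart 1, with 0.138 in the next. All values are ratios to Tbp. HET heart 3, which holds both Ifng and Cd8b1, was also the highest heart for 13 of 55 other genes near the lowest values and 30 of 100 other low genes.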

How the results depend on the processing

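No immune gene was called with median centring, quantile normalization, a pseudocount of 10, no filter, the replicate block, median centring with the replicate block (added after the values were seen), without any single heart, or without WT heart 2, HET heart 4 and KO heart 1 together (also added). Same-numbered hearts had correlations of -0.51 to 0.36 in their deviations from the genotype means. The labels do not say what the numbers mean, and whether same-numbered hearts share a litter or run was not tested. The replicate block gave 0 immune genes in each comparison, and leaving out any heart gave 0 in each. A variance that follows the mean with robust settings called 1 for KO against WT (H2-D1) and 2 for KO against HET (Cd84 and H2-D1). Over all genes that setting made 2 and 5 calls. Heart weights called 5 for KO against WT (Ccl19, Cd274, H2-D1, H2-T23 and Klrb1a), 2 for HET against WT (Ccl19 and Ms4a4a) and 2 for KO against HET (Cd84 and H2-D1), with 166, 4 and 7 calls over all genes. A mean count of at least 50 and voom weights each called 1 for KO against HET (H2-D1), with 4 and 5 calls over all genes. The cause was not tested. Genes near the lowest values numbered 17 at a mean count under 20, 0 under 10, 34 under 30, 48 under 50 and 10 by the highest genotype mean. Gene pairs with an adjusted permutation p under 0.05 numbered 3, 2 on the ratio to Tbp and 2 with genotype means kept. The number was 0 without WT heart 2, HET heart 4 and KO heart 1, where fewer hearts entered and fewer arrangements were possible. Alternative values of named genes and lineage medians covered scaling, pseudocount, the replicate block and hearts left out. The settings that called immune genes were not among them. Of 2139 such values of named genes, none was called, 7 moved by more than the spread between hearts and 143 changed sign. Of 510 lineage medians 8 moved and 42 changed sign. A gene's log2 difference is fixed under the replicate block, and when the heart left out is of a genotype not compared. Part of the 2139 values could therefore not move. Cd63 and Ptprc had r = -0.22 on the ratio to Tbp. Counts near the lowest values limit what can be said of Cd4, Cd8a and Ms4a1.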
